A study of Homo sapiens with 9 samples.

Results

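The step from 150 nM to 500 nM JIB-04 was examined in OCI-Ly1 cells, a permanent human line of diffuse large B-cell lymphoma (DLBCL). Of the 9 libraries of ribosomal RNA-depleted total RNA, 6 belong to this comparison, 3 from cells given 150 nM JIB-04 and 3 from cells given 500 nM JIB-04, chosen by their sample titles. The other 3 libraries, from cells given the vehicle DMSO, were used to see whether a change was already present at the lower dose. All cells came from 1 unmodified line cultured in IMDM with 10% FBS and antibiotics, and all were collected after 48 h. Nothing in the labels says that replicate libraries are separate cultures, and p-values then reflect only how far these libraries differ, a spread that may be technical.

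JIB-04 is a small molecule that inhibits Jumonji-domain histone demethylases, enzymes that use iron and 2-oxoglutarate to remove methyl groups from histone lysines. KDM4A and KDM4C, which the study's title names, belong to this family and act on methylated histone H3 lysine 9 and lysine 36. Enzymes of the same chemistry also sense oxygen and amino acids, hydroxylate collagen and repair alkylated DNA. A second dose allows responses that are already under way at the lower dose to be set apart from those that are seen only at the higher dose.

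Libraries at 150 nM held 33479142 to 43396003 counts and those at 500 nM held 42351389 to 57198613. The first principal component, with 59.4% of the variance, placed the 500 nM libraries at 53.34 to 59.74, the 150 nM libraries at -22.02 to -16.86 and the DMSO libraries at -43.37 to -34.08. On the second component DMSO replicate 2 lay far from the rest, at -42.38. Of the 8 B-cell markers checked, all were tested, and their summed level was 1730 to 1790 CPM (TMM-scaled counts relative to library size) at 150 nM and 1480 to 1550 CPM at 500 nM, although HLA-DRA was at no more than 1.48 CPM in any library. Of 10 T-cell and NK markers 7 were tested, 1 higher and 3 lower at 500 nM, with a sum of 14.7 to 17.8 CPM at 150 nM and 8.29 to 9.63 CPM at 500 nM, and CD7 was at 0 counts. The 10 myeloid markers summed to 2.36 to 3.8 CPM at 150 nM and 2.54 to 3.57 CPM at 500 nM, with S100A8, S100A9 and MPO at 0 counts. The 10 epithelial and stromal markers summed to 6.23 to 7.42 CPM and 5.14 to 6.2 CPM, with KRT19 and CDH1 at 0 counts.

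Raising the dose from 150 to 500 nM changed the level of 7021 of 15089 tested genes, 3577 upward and 3444 downward, at an adjusted p under 0.05 in edgeR's quasi-likelihood test. This is 46.5% of tested genes (23.7% higher and 22.8% lower). In the same fit, 150 nM against DMSO gave 192 called genes, or 1.27%, of which 144 were higher and 48 lower. The median absolute change was 0.274 on the log2 scale for the second step and 0.0931 for the first, with median standard errors of 0.0944 and 0.0958. Changes of at least 2-fold were mostly increases, with 878 genes higher and 287 lower. The 3 libraries at 500 nM did not overlap the 3 at 150 nM for 55.0% of tested genes, and 6740 of these genes were called. The near-even split by direction depends on the scaling. With total counts in place of TMM, which moves the median of all genes by 0.122 on the log2 scale, 5257 genes were higher and 2137 lower, so that 71.1% of called genes were higher in place of 50.9%, and changes below are relative to the TMM scale.

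**Figure D1:**
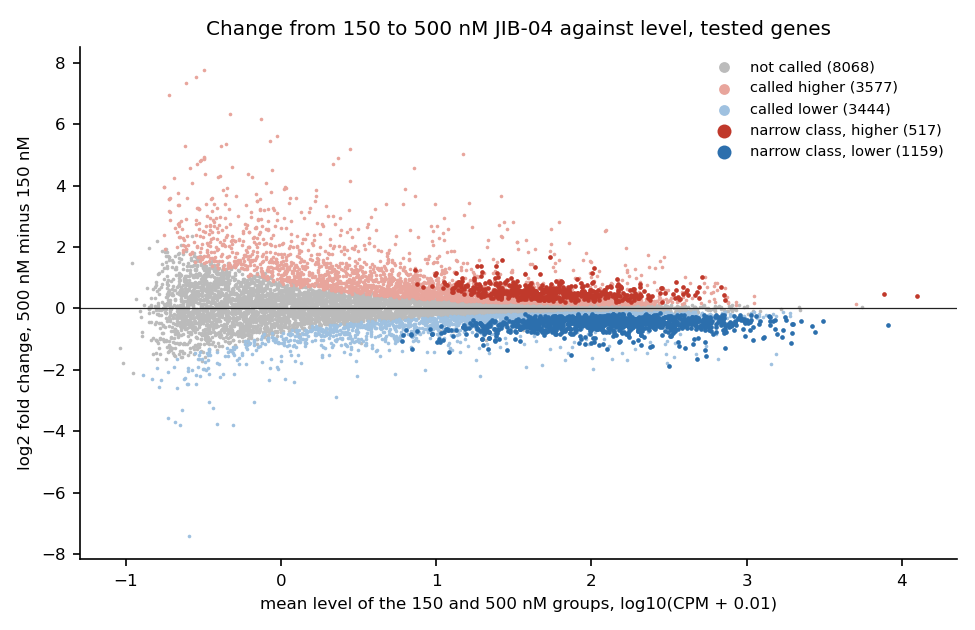
Log2 fold change from 150 to 500 nM JIB-04 (vertical axis) against the mean level of the 150 and 500 nM groups (horizontal axis, log10 of CPM plus 0.01), 1 point per tested gene, n = 3 libraries per group. Pale points were called at an adjusted p under 0.05, grey points were not, and dark points are the 517 higher and 1159 lower genes that were called only at the second step, changed more at the second step than at the first and had a 95% interval at 150 nM against DMSO within 0.322 on the log2 scale.

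Most of these changes were called only with the step to the higher dose. Of the genes called at the step, 3434 higher and 3402 lower genes were not called at 150 nM against DMSO, 790 and 266 of them by at least 2-fold. Missing a call at the lower dose does not show that nothing happened there, so the difference between the second and the first step was tested as well. It was called for 2410 genes, or 16.0% of those tested. Of the genes called only at the second step, 919 higher and 1358 lower genes changed more at that step than at the first by this test. A narrow class of 517 higher and 1159 lower genes met a further condition, that the 95% interval of 150 nM against DMSO lay within 0.322 on the log2 scale in either direction, and 19 and 42 of these changed by at least 2-fold at the second step. Among the genes called at both steps, 142 were higher at both, 42 were lower at both, AK4 alone was lower and then higher, and no gene was higher and then lower. Both steps share the 150 nM libraries, so an error in that group's mean moves them in opposite directions.

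The counts at the lower dose and the classes built on them rest partly on single libraries, while the counts at the step itself stayed between 3043 and 3678 higher and between 3003 and 3521 lower when any 1 library was left out. Without 150 nM replicate 1, 150 nM against DMSO gave 368 higher and 177 lower genes, and 63 genes were called higher and then lower. Without DMSO replicate 2 it gave 90 and 17, without 150 nM replicate 2 it gave 85 and 13, without 150 nM replicate 3 it gave 26 lower genes, without DMSO replicate 1 it gave 32 lower genes, and without DMSO replicate 3 it gave 88 lower genes. The narrow class fell to 232 higher genes without 150 nM replicate 2 and to 282 without 150 nM replicate 3, with 789 and 727 lower genes.

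The 8 largest increases of the narrow class, among genes with at least 5 CPM in the higher group, were SLC7A5P2, JUND, CLCN4, TNFAIP3, DTX2, ITPR1, CRTC1 and JUNB. Their log2 changes ran from 1.67 down to 1.18. JUND, a subunit of the AP-1 transcription factor, was at 11.8, 13.2 and 11.7 CPM in DMSO, 13.2, 13.6 and 13.1 CPM at 150 nM and 39.8, 41.5 and 38.1 CPM at 500 nM. It rose by 1.58 ± 0.09 on the log2 scale (SE, n = 3 per group, adjusted p = 1.3e-14), against 0.12 ± 0.09 at the first step (adjusted p = 0.715). CLCN4, a chloride and proton exchanger, was at 11, 10.4 and 10.8 CPM in DMSO, 10.4, 10.9 and 11 CPM at 150 nM and 27.9, 29.5 and 27.6 CPM at 500 nM, with DMSO and 150 nM overlapping. ITPR1, the receptor that releases calcium from the endoplasmic reticulum, was at 25.9, 23.3 and 23.5 CPM at 150 nM and 68.9, 59.9 and 57.6 CPM at 500 nM and rose by 1.36 ± 0.08. DTX2, a ubiquitin ligase of the Notch pathway, rose by 1.37 ± 0.11, and CRTC1, a coactivator of CREB, by 1.26 ± 0.14. SLC7A5P2, a pseudogene of the amino acid transporter gene SLC7A5, rose by 1.67 ± 0.09 while SLC7A5 itself rose by 0.58 ± 0.06, and symbol-level counts cannot fully separate their reads.

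The 8 largest decreases of the narrow class were 4 histone genes (HIST1H2BM, HIST1H4D, HIST1H3D and HIST1H1D), CD52, S100A4, FAR2P2 and HLA-DMA. CD52, a small surface glycoprotein of lymphocytes, was at 122, 121 and 122 CPM in DMSO, 117, 104 and 107 CPM at 150 nM and 37.2, 36.9 and 41 CPM at 500 nM. It fell by 1.51 ± 0.06 on the log2 scale (adjusted p = 3.33e-17), and all 3 of its 500 nM values lay below all others. S100A4, a calcium-binding protein, was at 19.9, 18.6 and 14.5 CPM at 150 nM and 6.88, 6.1 and 6.67 CPM at 500 nM and fell by 1.43 ± 0.13. HLA-DMA, a chain of the chaperone that loads peptides onto MHC class II molecules, was at 10.3, 9.54 and 9.9 CPM at 150 nM and 3.43, 4.26 and 4.2 CPM at 500 nM and fell by 1.33 ± 0.13. All 16 genes kept their call at the step in every alternative fit. Membership of the narrow class was less stable, since only 7 of the 16 kept it without DMSO replicate 2 or without 150 nM replicate 1, and 10 kept it without DMSO replicate 3 or without 150 nM replicate 2.

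**Figure D2:**
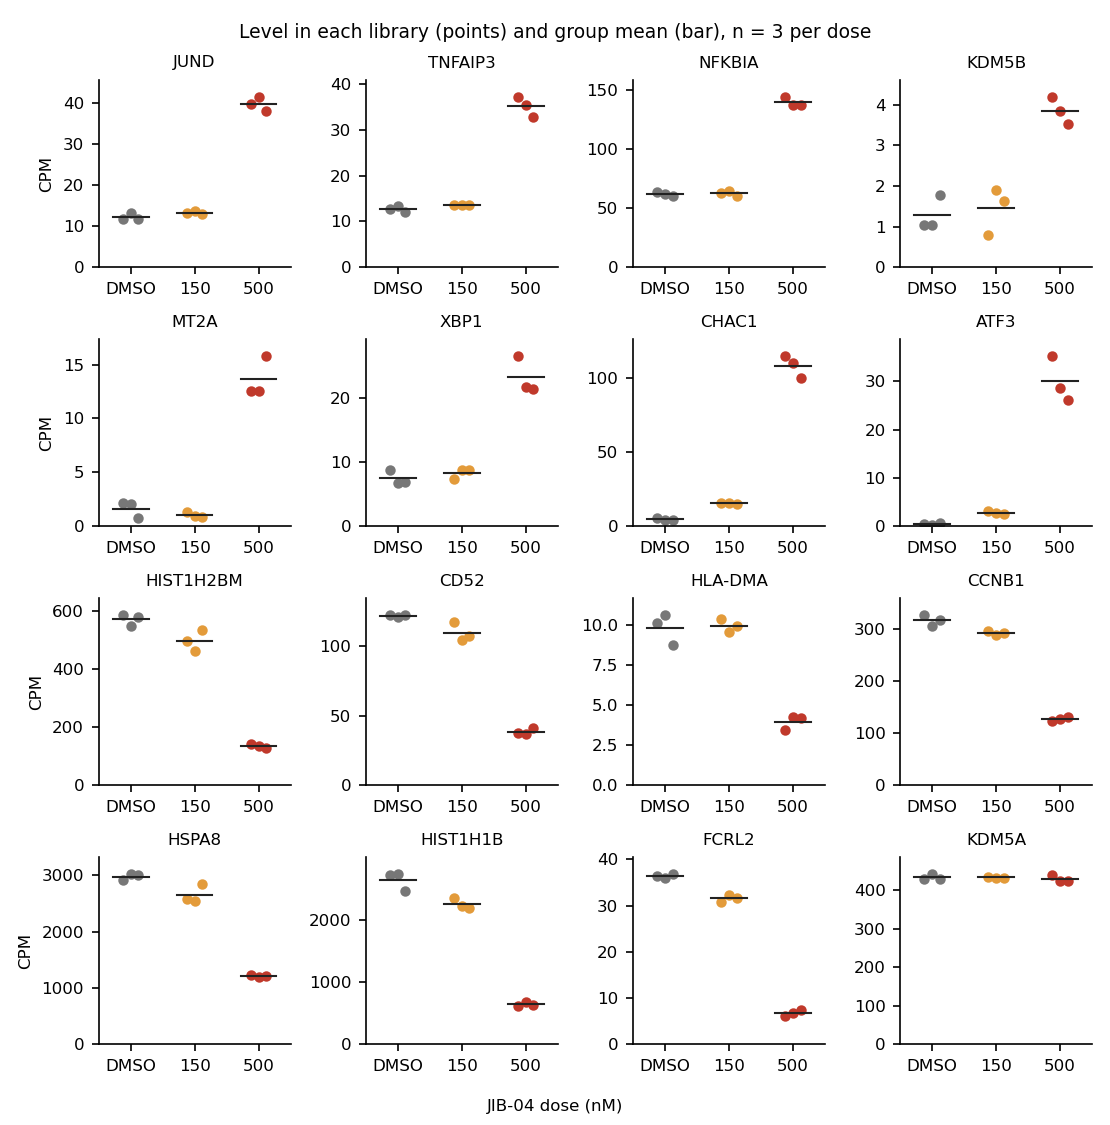
Level in CPM (vertical axis, starting at 0) of 16 genes in each library at DMSO, 150 nM and 500 nM JIB-04 (horizontal axis), with points for libraries and a bar for the mean of 3. JUND, TNFAIP3 and NFKBIA lie at one level in DMSO and 150 nM and higher at 500 nM, CHAC1 and ATF3 rise at both steps, and KDM5A shows no change.

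Most tested AP-1 and immediate-early genes rose at the second step. Of the 26, 14 were called only at that step and changed more there by the test of the difference. Among all tested genes 6.09% were higher and 9% lower by the same conditions. AP-1 proteins are dimers of JUN, FOS and ATF family members whose genes are switched on within minutes by kinase signals, and DUSP genes encode phosphatases that shut those kinases off. Of 30 listed AP-1 and immediate-early genes 26 were tested, of which 21 rose and 1 fell, against 23.7% and 22.8% of all tested genes. Their median change was 1.53 on the log2 scale, beside 0.00933 for all tested genes. At the first step 1 of the 26 rose, which was ATF3, where 1.27% of all tested genes were called. JUN was at 3.11, 3.37 and 2.51 CPM in DMSO, 3.74, 3.34 and 3.12 CPM at 150 nM and 20, 22.4 and 19.1 CPM at 500 nM and rose by 2.58 ± 0.13 (adjusted p = 2.66e-15, difference from the first step adjusted p = 7.99e-08). All 3 libraries of JUN at 500 nM lay above every other library. FOSB was at 0.301, 0.44 and 0.562 CPM in DMSO, 0.281, 0.123 and 0.0619 CPM at 150 nM and 1.87, 1.18 and 1.72 CPM at 500 nM and EGR1 at 1.6, 1.17 and 0.749 CPM in DMSO, 0.655, 0.466 and 0.371 CPM at 150 nM and 2.27, 2.44 and 1.89 CPM at 500 nM. Both were lower at 150 nM than in DMSO without being called (adjusted p = 0.28 and 0.0883) and rose at the second step by 3.28 ± 0.47 and 2.12 ± 0.33. The growth arrest gene GADD45B rose by 2.24 ± 0.15, JUNB by 1.18 ± 0.10 and the phosphatase gene DUSP1 by 2.28 ± 0.28. DUSP2 was the one member that fell, by 0.53 ± 0.12.

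Most genes of the NF-kB system rose at the second step. NF-kB dimers are held in the cytoplasm by inhibitor proteins whose own genes are NF-kB targets, which closes a feedback loop. Of 14 listed genes all were tested, of which 11 rose and 1 fell, against 23.7% and 22.8% of all tested genes, and their median change was 0.376. None was called at 150 nM against DMSO, where 1.27% of all genes were, and the difference of the steps was called for 8 of the 12. Among all tested genes 6.09% were higher and 9% lower only at the second step with that difference called. The A20 gene TNFAIP3, a ubiquitin editor that ends NF-kB signalling, was at 12.8, 13.3 and 12.1 CPM in DMSO, 13.5, 13.5 and 13.6 CPM at 150 nM and 37.2, 35.4 and 32.8 CPM at 500 nM and rose by 1.37 ± 0.09 (adjusted p = 4.29e-13). NFKBIA, the inhibitor that retains NF-kB in the cytoplasm, was at 63.6, 62.3 and 59.8 CPM in DMSO, 63.2, 64.6 and 60 CPM at 150 nM and 144, 137 and 138 CPM at 500 nM and rose by 1.16 ± 0.06. Neither gene's 500 nM libraries overlapped the others. NFKB2 and RELB, partners of the non-canonical pathway, rose by 0.81 ± 0.09 and 0.65 ± 0.08. REL, the c-Rel subunit of germinal-centre B cells, went the other way, at 212, 224 and 228 CPM at 150 nM and 115, 125 and 125 CPM at 500 nM, a fall of 0.86 ± 0.06.

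The promoters of NFKBIA and TNFAIP3 are shown because both hold a pair of kappaB-like matches close to the start of the gene. The stretches are the 120 bases before the RefSeq start (GRCh38.p14), 5′ to 3′ on the gene's strand, with the match in capitals, at chr14:35404750-35404869 (minus strand) and chr6:137867139-137867258 (plus strand).
NFKBIA: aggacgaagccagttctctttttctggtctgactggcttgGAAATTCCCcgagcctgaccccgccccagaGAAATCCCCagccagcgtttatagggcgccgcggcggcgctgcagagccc
TNFAIP3: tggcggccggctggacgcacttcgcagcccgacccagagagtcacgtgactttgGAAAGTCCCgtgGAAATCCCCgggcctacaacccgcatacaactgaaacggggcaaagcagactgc
The letters searched were GGGNNTTTC on either strand in the 250 bases before the start. They occurred in 5 of 12 promoters found for the list, those of NFKB1, REL, NFKBIA, NFKBIZ and TNFAIP3, and in 4.12% of all 27305 promoters. REL, the member that fell, thus holds a match too.

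Several genes that are targets of these factors in immune cells appeared with the higher dose. CXCL10, a chemokine that attracts T cells, had 0 counts in all DMSO and 150 nM libraries and 100 counts over the 3 libraries at 500 nM. This is 24.3-fold over an assumed floor of 3 counts in the 150 nM group, and the lower 95% counting limit of the ratio was 19.4. TNFRSF9, the costimulatory receptor 4-1BB, had 0 counts in DMSO, 1 count at 150 nM and 145 counts at 500 nM, a ratio of 106 with a 95% counting interval of 18.7 to 4200 (exact binomial, counting error only). The lymphotoxin gene LTA was at 1.43, 2.11 and 1.11 CPM at 150 nM and 7.12, 6.5 and 5.55 CPM at 500 nM and rose by 2.03 ± 0.21, and the lymph-node homing receptor gene CCR7 rose by 2.12 ± 0.22. ICAM1, an adhesion molecule, was at 0.765, 0.44 and 0.492 CPM in DMSO, 1.82, 1.69 and 1.58 CPM at 150 nM and 17.9, 18.6 and 17.1 CPM at 500 nM and thus rose at both steps, by 1.55 ± 0.22 and then 3.39 ± 0.15. The chemokine receptor gene CCR6 fell by 1.05 ± 0.15. Of 14 tested cytokine, chemokine and receptor genes, of 21 listed, 6 rose and 1 fell, beside 23.7% and 22.8% of all tested genes. A gene such as CXCL10, without counts at the lower dose, passes the filter only through the 500 nM group and cannot be called lower.

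Metallothionein and zinc exporter genes rose at the second step. Metallothioneins are small proteins that bind zinc and copper, and their genes and the zinc exporter gene SLC30A1 are switched on by the zinc-sensing factor MTF1. MT2A was at 2.11, 2.05 and 0.749 CPM in DMSO, 1.31, 0.956 and 0.897 CPM at 150 nM and 12.6, 12.6 and 15.8 CPM at 500 nM, with no call at the first step (adjusted p = 0.513), and rose by 3.68 ± 0.25 (adjusted p = 2.41e-10). MT1X was at 1.85, 1.98 and 1.94 CPM in DMSO, 2.04, 2.23 and 1.64 CPM at 150 nM and 14.5, 9.54 and 10.6 CPM at 500 nM and rose by 2.55 ± 0.18. SLC30A1 was at 2.81, 2.27 and 1.69 CPM in DMSO, 2.78, 2.94 and 2.75 CPM at 150 nM and 15.5, 17.9 and 15.7 CPM at 500 nM and rose by 2.53 ± 0.15. In all 3 genes the 500 nM libraries lay above every other library, and the difference of the steps was called. MT1E had 2 counts over the 150 nM group and 227 over the 500 nM group, a ratio of 82.8 with a 95% counting interval of 22.6 to 688. MTF1 itself did not pass the test (-0.05 ± 0.08, adjusted p = 0.669). The zinc importer gene SLC39A10 fell by 0.80 ± 0.09. Reads of metallothionein genes can be split or lost between near-identical copies.

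Genes of iron handling changed less. FTH1, the ferritin heavy chain that stores iron, was at 148, 141 and 152 CPM at 150 nM and 246, 225 and 216 CPM at 500 nM and rose by 0.64 ± 0.06, and IREB2, which blocks ferritin translation when iron is low, fell by 0.46 ± 0.06. TFRC, the transferrin receptor, rose at both steps, by 0.27 ± 0.05 and 0.20 ± 0.05. Of 21 listed metal and iron genes 16 were tested, of which 10 rose and 3 fell, against 23.7% and 22.8% of all tested genes. A gene such as MT1E, with hardly any counts at the lower dose, passes the filter only through the 500 nM group and cannot be called lower.

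Matches to the metal response element core are shown for MT2A and MT1X, the tested metallothionein genes of the list with the highest counts, in the 120 bases before the RefSeq start at chr16:56608464-56608583 and chr16:56682350-56682469 (both plus strand, GRCh38.p14), with the match in capitals.
MT2A: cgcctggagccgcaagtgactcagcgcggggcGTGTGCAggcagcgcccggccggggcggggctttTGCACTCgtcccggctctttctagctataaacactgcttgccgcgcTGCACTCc
MT1X: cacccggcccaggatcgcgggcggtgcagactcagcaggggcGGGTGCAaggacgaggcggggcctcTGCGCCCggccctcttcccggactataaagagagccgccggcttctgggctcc
The letters searched were TGCACNC and TGCGCNC on either strand. They occurred in 6 of 11 promoters found for the list and in 24.7% of all promoters.

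Genes of the amino acid stress response that are known ATF4 targets were called higher at both steps more often than not. ATF4 is translated when the eIF2-alpha kinases are active and switches on genes for amino acid synthesis, amino acid import and, with prolonged stress, cell death. Of 40 listed genes 37 were tested, of which 26 rose at the first step, where 1.27% of all tested genes were called, and 36 rose and 1 fell at the second, with a median change of 1.27 at the second step. CHAC1, which degrades glutathione, was at 5.7, 4.4 and 3.96 CPM in DMSO, 15.9, 15.6 and 15.1 CPM at 150 nM and 115, 110.0 and 100.1 CPM at 500 nM. It rose by 1.72 ± 0.11 and then by 2.80 ± 0.09, and the second rise was larger (difference adjusted p = 4.22e-05). DDIT3, the CHOP transcription factor gene, was at 9.27, 9.31 and 6.46 CPM in DMSO, 12.8, 14.4 and 12.9 CPM at 150 nM and 66.8, 60.6 and 59.1 CPM at 500 nM, rising by 0.69 ± 0.11 and 2.22 ± 0.10. ATF3 was at 0.464, 0.257 and 0.656 CPM in DMSO, 3.16, 2.62 and 2.44 CPM at 150 nM and 35.2, 28.5 and 26.2 CPM at 500 nM, and its second rise of 3.44 ± 0.15 was not larger than its first of 2.51 ± 0.23 by the test (adjusted p = 0.0678). The asparagine synthetase gene ASNS rose by 0.50 ± 0.05 and 0.84 ± 0.05.

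Part of this list was called only at the higher dose. VEGFA, the vascular growth factor gene, was at 4.94, 7.55 and 8.55 CPM in DMSO, 8.8, 8.04 and 7.39 CPM at 150 nM and 52.4, 52 and 43.1 CPM at 500 nM and rose by 2.60 ± 0.14. DDIT4, an inhibitor of mTORC1, was at 22.2, 30 and 36.5 CPM in DMSO, 37.8, 40.2 and 30.9 CPM at 150 nM and 236, 207 and 197 CPM at 500 nM and rose by 2.55 ± 0.19. Both changed more at the second step by the test of the difference (adjusted p = 1.53e-06 and 0.00389). The ATF4 transcript itself was at 559, 554 and 539 CPM in DMSO, 615, 602 and 618 CPM at 150 nM and 842, 834 and 808 CPM at 500 nM and rose by 0.44 ± 0.04. SHMT2, the mitochondrial serine hydroxymethyltransferase gene, and the neutral amino acid transporter gene SLC1A4 rose by 0.68 ± 0.05 and 0.59 ± 0.05. ALDH18A1, which makes a proline precursor, was the one member that fell, by 0.58 ± 0.05.

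CHAC1 and ASNS are shown because a composite C/EBP-ATF response element is the sequence through which ATF4 is known to act on such genes, and both hold a match to its letters TGATGNAA. The CHAC1 stretch runs from 250 to 131 bases before the RefSeq start (chr15:40953221-40953340, plus strand) and that of ASNS is the last 120 bases before it (chr7:97872409-97872528, minus strand), both GRCh38.p14, with the match in capitals.
CHAC1: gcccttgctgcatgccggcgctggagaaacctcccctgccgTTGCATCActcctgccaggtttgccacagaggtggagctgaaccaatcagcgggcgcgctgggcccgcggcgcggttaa
ASNS: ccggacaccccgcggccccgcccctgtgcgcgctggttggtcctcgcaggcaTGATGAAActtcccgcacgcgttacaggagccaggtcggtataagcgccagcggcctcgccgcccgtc
A match was found in 3 of 30 promoters of the list, those of ATF3, CHAC1 and ASNS, and in 3.19% of all promoters, so most members that rose hold none in this window.

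Aminoacyl-tRNA synthetase genes split. These enzymes charge each tRNA with its amino acid, and several are ATF4 targets. Of 20 tested genes 11 rose and 7 fell at the second step, against 23.7% and 22.8% of all tested genes. At the first step 6 had risen, where 1.27% of all tested genes were called. The tryptophanyl enzyme gene WARS was at 81.6, 77.1 and 81.9 CPM in DMSO, 109, 109 and 101 CPM at 150 nM and 379, 355 and 335 CPM at 500 nM and rose by 0.41 ± 0.06 and 1.74 ± 0.06. The methionyl enzyme gene MARS rose by 0.68 ± 0.05. The arginyl enzyme gene RARS was at 124, 131 and 136 CPM at 150 nM and 87.2, 78.9 and 81.3 CPM at 500 nM and fell by 0.66 ± 0.06, and FARSB, a phenylalanyl enzyme chain gene, fell by 0.55 ± 0.05.

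Genes of the unfolded protein response of the endoplasmic reticulum (ER) changed in both directions. ERN1 encodes the ER stress sensor IRE1, which splices XBP1 mRNA, and XBP1 then induces ER folding and degradation genes. ERN1 was at 3.34, 2.97 and 3.04 CPM in DMSO, 4.89, 3.92 and 5.32 CPM at 150 nM and 32, 28.8 and 27.3 CPM at 500 nM and rose by 0.58 ± 0.14 and 2.64 ± 0.12. XBP1 was at 8.83, 6.78 and 6.88 CPM in DMSO, 7.44, 8.83 and 8.75 CPM at 150 nM and 26.6, 21.8 and 21.5 CPM at 500 nM, with no call at the first step, and rose by 1.49 ± 0.12. The ER degradation gene HERPUD1 rose by 0.93 ± 0.05 and the sensor gene ATF6 by 0.42 ± 0.07. Other members fell. HSPA5, the main ER chaperone BiP, was at 217, 164 and 181 CPM at 150 nM and 122, 117 and 113 CPM at 500 nM and fell by 0.68 ± 0.08. CALR and MANF fell by 0.84 ± 0.05 and 0.89 ± 0.07. Over the 22 tested members 8 rose and 10 fell, beside 23.7% and 22.8% of all tested genes. With total counts in place of TMM the count turned to 10 higher and 8 lower.

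Cytosolic protein folding and degradation genes fell together at the second step, and none had been called at the first. Heat-shock proteins fold other proteins in the cytosol, the CCT complex folds actin and tubulin, and the proteasome degrades ubiquitin-tagged proteins. Of 24 heat-shock and chaperonin genes 18 fell and 2 rose, with a median change of -0.526, and 17 of the 24 were in the narrow class. Among all tested genes 22.8% fell, 23.7% rose and 7.68% were lower genes of the narrow class. A gene with a wide interval at 150 nM against DMSO cannot enter that class, whatever its change. HSPA8, the constitutive HSC70 gene, was at 2909.5, 3014 and 2998 CPM in DMSO, 2580.5, 2545 and 2836 CPM at 150 nM and 1238, 1187 and 1212 CPM at 500 nM, a fall of 1.13 ± 0.05 (adjusted p = 1.91e-17). HSP90AA1 was at 1291, 1200.5 and 1338 CPM at 150 nM and 693, 665 and 678 CPM at 500 nM, a fall of 0.91 ± 0.05. HSPA1A, the stress-inducible HSP70 gene, did not pass the test (51.9, 44.5 and 49 CPM at 150 nM and 52.2, 48.1 and 44.8 CPM at 500 nM, log2 change -0.0032 ± 0.08, adjusted p = 0.979). Of 31 proteasome subunit genes 30 fell and none rose, with a median of -0.413, and 26 were in the narrow class. PSMD1 and PSMA3 fell by 0.81 ± 0.05 and 0.75 ± 0.06, and PSMD8 was the gene that was not called (-0.04 ± 0.06, adjusted p = 0.633).

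Of the autophagy and lysosome genes tested, 15 rose, again with no call at the first step. Autophagy receptors such as SQSTM1 and OPTN carry damaged proteins and organelles to the lysosome. Of 28 listed genes 27 were tested, of which 15 rose, none fell and 12 were not called, with a median of 0.211, against 23.7% higher and 22.8% lower among all tested genes. SQSTM1 was at 114, 118 and 102 CPM in DMSO, 117, 109 and 102 CPM at 150 nM and 192, 175 and 179 CPM at 500 nM and rose by 0.74 ± 0.06. OPTN was at 4.66, 4.34 and 3.5 CPM at 150 nM and 13.3, 15.7 and 12 CPM at 500 nM and rose by 1.71 ± 0.15, and MAP1LC3B, a coat protein of the autophagosome, rose by 0.77 ± 0.07. With GC trends removed 17 rose and 2 fell.

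**Figure D3:**
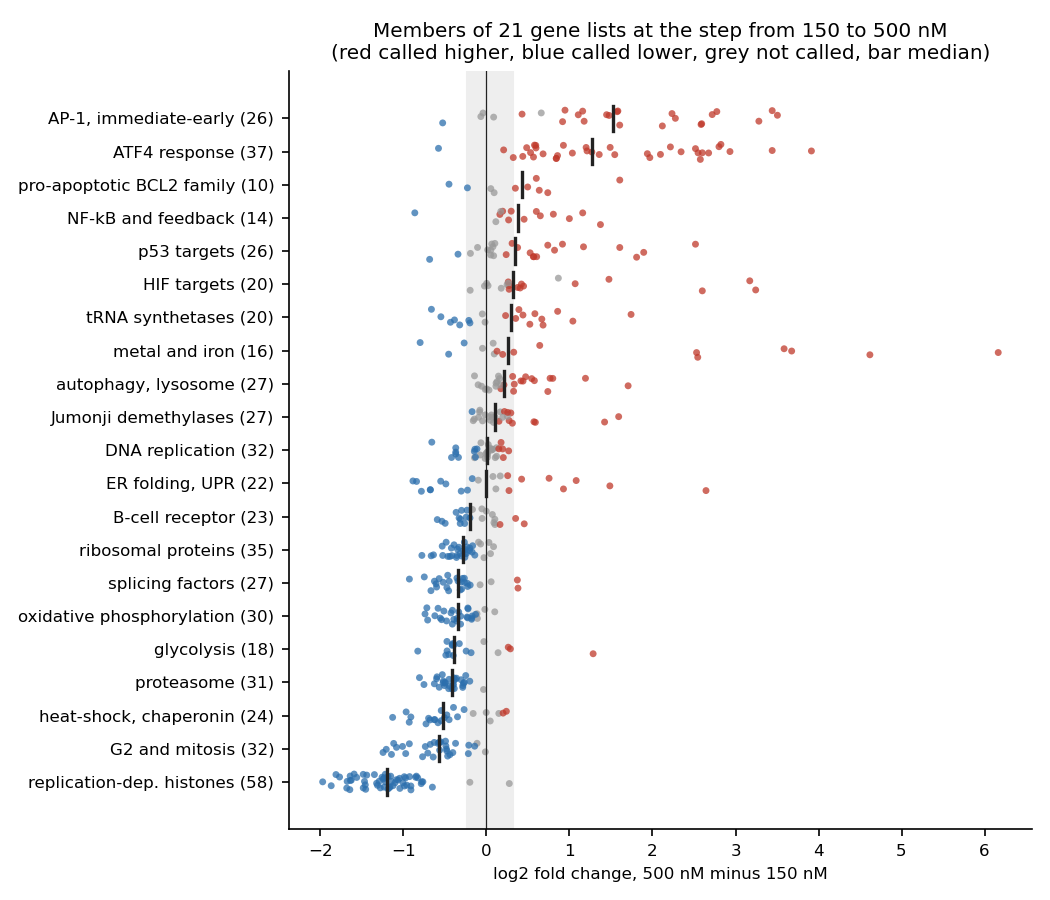
Log2 fold change from 150 to 500 nM JIB-04 (horizontal axis) of the tested members of gene lists (rows, with the number tested), n = 3 libraries per group, sorted by the median, which is the black bar. Red members were called higher, blue members lower and grey members were not called, and the grey band spans the middle 50% of all tested genes. AP-1 and ATF4 genes lie highest and replication-dependent histone genes lowest.

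A hypoxia-inducible gene, AK4, was the only gene called in opposite directions at the 2 steps. Hypoxia-inducible factors (HIF) are marked for degradation by oxygen- and iron-dependent prolyl hydroxylases, and their targets include glycolysis genes. AK4, a mitochondrial adenylate kinase and a HIF target, was at 5.29, 6.82 and 10.4 CPM in DMSO, 4.09, 2.57 and 2.54 CPM at 150 nM and 9.11, 7.12 and 9.53 CPM at 500 nM. It fell by 1.28 ± 0.23 at the first step (adjusted p = 0.00444) and rose by 1.48 ± 0.23 at the second (adjusted p = 2.63e-05). Its 500 nM libraries overlapped those of DMSO, and both calls held in every alternative fit that could give them. PFKFB4, which sets the level of a glycolysis activator, was at 11.6, 14.9 and 16.1 CPM in DMSO, 6.25, 3.85 and 2.72 CPM at 150 nM and 5.89, 5.33 and 4.18 CPM at 500 nM. It fell by 1.71 ± 0.22 at the first step and did not pass the test at the second (0.25 ± 0.23, adjusted p = 0.398). Without 150 nM replicate 1, the highest of its group, the second step of PFKFB4 was 0.63 with an adjusted p of 0.00412.

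Of 22 listed HIF targets 20 were tested, of which 12 rose and none fell, against 23.7% and 22.8% of all tested genes, with a median of 0.324. The lowest change in this list was -0.196, so LDHA and PGK1, which fell further, are not in it. The absence of falls thus holds for the listed genes only. At the first step 2 had fallen, where 1.27% of all tested genes were called. NDRG1 was at 0.187, 0.196 and 0.0619 CPM at 150 nM and 1.34, 1.42 and 1.66 CPM at 500 nM and rose by 3.24 ± 0.48. ADM, the vasodilator peptide adrenomedullin gene, was at 4.71, 4.55 and 4.35 CPM in DMSO, 3.09, 3.87 and 3.22 CPM at 150 nM and 4.5, 4.31 and 4.84 CPM at 500 nM and rose by 0.42 ± 0.16 (adjusted p = 0.0349) after a first step of -0.42 ± 0.17 that was not called. That rise of ADM was no longer called without 150 nM replicate 1 or 3 or without 500 nM replicate 1 or 3 (adjusted p = 0.068 to 0.135). EGLN1, the main HIF prolyl hydroxylase gene, and the glucose transporter gene SLC2A1 rose by 0.38 ± 0.08 and 0.26 ± 0.06. Glycolysis genes were counted in a list of their own and went mostly the other way. Of 18 tested glycolysis genes 13 fell and 3 rose at the second step, 8 had fallen at the first, and the median was -0.396. LDHA was at 893, 1009.6 and 1078 CPM in DMSO, 839, 791 and 826 CPM at 150 nM and 475, 454 and 454 CPM at 500 nM, falling by 0.28 ± 0.05 and 0.83 ± 0.05. PGK1 fell by 0.29 ± 0.05 and 0.41 ± 0.05. The enolase gene ENO2 was at 1.64, 1.72 and 1.58 CPM at 150 nM and 4.4, 3.6 and 4.03 CPM at 500 nM and rose by 1.28 ± 0.21.

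**Figure D4:**
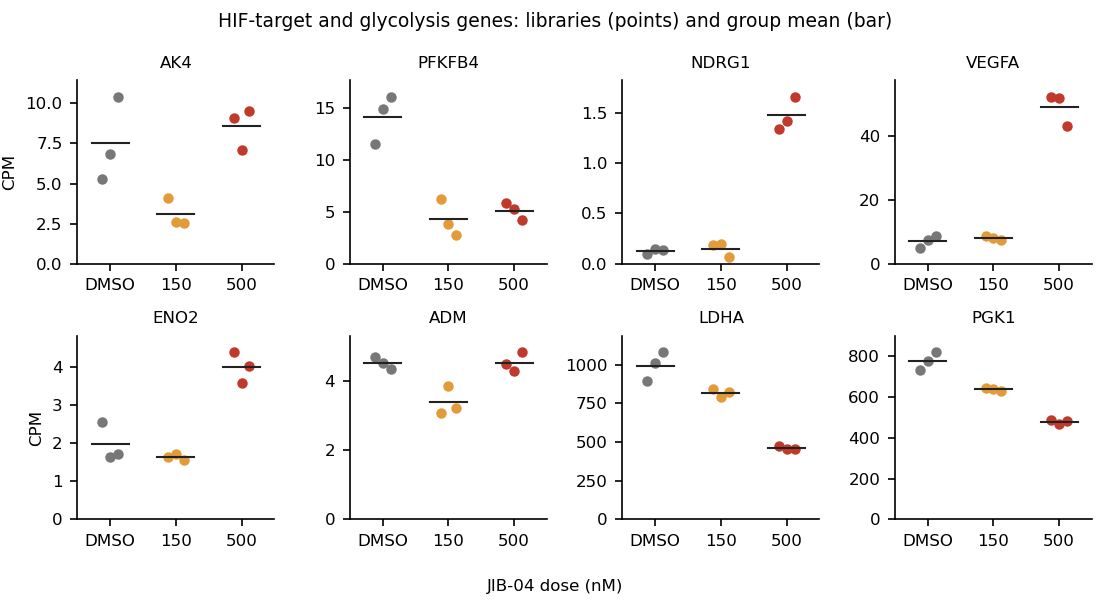
Level in CPM (vertical axis, starting at 0) of 8 HIF-target and glycolysis genes in each library at DMSO, 150 nM and 500 nM JIB-04 (horizontal axis), with points for libraries and a bar for the mean of 3. AK4 and ADM are lowest at 150 nM, PFKFB4 stays low at 500 nM, and LDHA and PGK1 fall at each step.

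CYP1A1, a detoxifying enzyme gene that is the classical target of the aryl hydrocarbon receptor, was at 46.5, 37.7 and 36.7 CPM in DMSO, 29.2, 25.3 and 28.5 CPM at 150 nM and 8.88, 7.59 and 9.25 CPM at 500 nM. It fell at both steps, by 0.55 ± 0.10 and 1.69 ± 0.10, and more at the second (difference adjusted p = 1.88e-05). The receptor gene AHR was at 24.6, 27.8 and 33.9 CPM at 150 nM and 36.6, 36.8 and 33 CPM at 500 nM and rose by 0.30 ± 0.09, a call lost without 150 nM replicate 1 (log2 change 0.20). Of 10 listed genes of this axis 7 were tested, of which 3 rose and 1 fell, beside 23.7% and 22.8% of all tested genes. CYP1A1 was the one that fell, while AHRR and TIPARP rose by 0.30 ± 0.10 (adjusted p = 0.0178) and 0.15 ± 0.06 (adjusted p = 0.0414). With DESeq2 2 rose and 1 fell.

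Replication-dependent histone genes had the lowest median of the gene lists described here. These genes are expressed in S phase to package new DNA, and their mRNAs end in a stem-loop in place of a poly(A) tail. Of 59 listed genes 58 were tested, of which 56 fell and none rose, with a median of -1.2. Among all tested genes 22.8% fell and 23.7% rose. At the first step 15 of the listed genes had fallen, where 1.27% of all tested genes were called. The listed genes took 2.52% to 2.74% of all counts at 150 nM and 1.14% to 1.20% at 500 nM. HIST1H2BM was at 587, 550.0 and 580.3 CPM in DMSO, 497, 463 and 536 CPM at 150 nM and 142, 137 and 130.3 CPM at 500 nM, a fall of 1.87 ± 0.06 (adjusted p = 2.69e-20) after -0.20 ± 0.05 at the first step (adjusted p = 0.0586). HIST1H4D was at 749, 742 and 697 CPM at 150 nM and 234, 227 and 241 CPM at 500 nM, a fall of 1.64 ± 0.06. HIST1H1B, a linker histone gene, was at 2722, 2725 and 2453 CPM in DMSO, 2347, 2214 and 2193 CPM at 150 nM and 608, 678 and 637 CPM at 500 nM and fell at both steps, by 0.23 ± 0.05 and 1.81 ± 0.05. The 2 tested genes that were not called, HIST1H2AD and HIST1H2BH, were below 1 CPM in every library. Reads of near-identical histone genes can be split or lost, so single members are less certain than the group. Among replication-independent histones, H2AFZ fell by 0.40 ± 0.05 and the linker histone gene H1F0 rose by 1.42 ± 0.39, from under 1 CPM.

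The promoter of HIST1H2BM is shown as an example of the CCAAT boxes that histone promoters share, as the 120 bases before the RefSeq start at chr6:27814902-27815021 (plus strand, GRCh38.p14), with CCAAT on either strand in capitals.
HIST1H2BM: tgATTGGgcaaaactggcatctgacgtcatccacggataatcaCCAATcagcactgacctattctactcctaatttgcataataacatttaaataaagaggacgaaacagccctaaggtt
CCAAT was found in 41 of 48 histone promoters of the list and in 33% of all promoters of the same length.

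Mitotic genes fell at the second step, while DNA replication genes were called in shares near those of all tested genes. Of 32 genes of G2 and mitosis 30 fell and none rose, with a median of -0.568, and 25 were in the narrow class. Among all tested genes 22.8% fell and 7.68% were lower genes of the narrow class. CCNB1, the mitotic cyclin B1, was at 326, 306 and 318 CPM in DMSO, 296, 288 and 292 CPM at 150 nM and 122, 127 and 130.3 CPM at 500 nM, a fall of 1.21 ± 0.05 (adjusted p = 2.26e-17). The mitotic kinase gene PLK1 was at 103, 114 and 102 CPM in DMSO, 92.9, 84.7 and 85.5 CPM at 150 nM and 34.7, 38.7 and 37.7 CPM at 500 nM and fell at both steps (adjusted p = 0.024 and 9.02e-15), although its first step was no longer called without DMSO replicate 2 (adjusted p = 0.258), without 150 nM replicate 2 (0.22) or without 150 nM replicate 3 (0.102). The motor genes KIF20A and CENPE fell by 1.12 ± 0.06 and 1.08 ± 0.08. FOXM1, a transcription factor for these genes, did not pass the test (91.7, 83.7 and 85.3 CPM at 150 nM and 85.1, 84.2 and 89.1 CPM at 500 nM, log2 change -0.01 ± 0.06, adjusted p = 0.879). In bulk RNA, fewer cells in a phase and less RNA per cell cannot be told apart. Of 32 replication genes 5 rose and 10 fell, beside 23.7% and 22.8% of all tested genes, a count that turned to 14 and 6 with total counts in place of TMM. The helicase subunit gene MCM2 was at 316, 292 and 294 CPM at 150 nM and 293, 304 and 299.9 CPM at 500 nM, a log2 change of -0.01 ± 0.05 (adjusted p = 0.93). RFC3, a clamp loader subunit gene, fell by 0.66 ± 0.06.

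The cell-cycle inhibitor gene CDKN1A was at 19.2, 17.6 and 18.8 CPM in DMSO, 43.1, 41.6 and 38 CPM at 150 nM and 146, 142 and 142 CPM at 500 nM and rose at both steps, by 1.14 ± 0.07 and 1.81 ± 0.07. Of 26 p53 targets 15 rose and 2 fell at the second step, against 23.7% and 22.8% of all tested genes, and 5 had risen at the first, where 1.27% of all were called. The largest change in this list, 2.52, equals that of SESN2, which is in the ATF4 list. These counts therefore do not set p53 targets apart from ATF4 targets. The death receptor gene FAS was at 2.06, 1.59 and 1.7 CPM at 150 nM and 7.68, 5.3 and 6.95 CPM at 500 nM and rose by 1.89 ± 0.20. BBC3, the BH3-only killer PUMA, rose at both steps, by 0.93 ± 0.12 and 1.61 ± 0.11, and PMAIP1, which encodes NOXA, was at 99.2, 118 and 127 CPM at 150 nM and 196, 195 and 183 CPM at 500 nM and rose by 0.74 ± 0.07. MDM2, the p53 antagonist, did not pass the test (0.01 ± 0.05, adjusted p = 0.842), though it did with total counts (0.14). Of 10 tested pro-apoptotic BCL2 family genes 6 rose and 2 fell. The survival genes MCL1 and BCL2 did not pass the test, with log2 changes of -0.03 ± 0.05 (adjusted p = 0.647) and -0.01 ± 0.05 (adjusted p = 0.83; 0.11 and called with total counts), and BCL2A1, an NF-kB target of the same family, rose by 1.13 ± 0.29.

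Genes of the machinery for protein synthesis, RNA splicing and respiration fell by smaller amounts, without a call at the first step. Of 35 ribosomal protein genes 29 fell and none rose, with a median of -0.279, against 22.8% lower and 23.7% higher among all tested genes. Of 28 ribosome biogenesis genes 22 fell, of 27 splicing factor genes 23 fell and 2 rose, and of 30 oxidative phosphorylation genes 26 fell. With total counts in place of TMM these counts were 23, 17, 20 and 18 lower. The nucleolar genes NPM1 and NCL fell by 0.71 ± 0.05 and 0.66 ± 0.05. HNRNPA2B1, an RNA-binding splicing regulator, was at 1644, 1717 and 1729 CPM at 150 nM and 912, 918 and 845 CPM at 500 nM, a fall of 0.93 ± 0.05, and the splicing kinase gene CLK1 rose by 0.38 ± 0.06. ATP5G1, a subunit of ATP synthase, fell by 0.74 ± 0.07. Small nucleolar RNAs, which guide modification of ribosomal RNA and mostly lie in introns of host genes, were lower for 90 and higher for 3 of 226 tested, with a median of -0.612. Of 18 tested small nucleolar RNA host genes 5 rose and 5 fell, shares near those of all tested genes, and their median change was 0.0581. The hosts GAS5 and ZFAS1, which are degraded when ribosomes run on them, rose by 0.63 ± 0.06 and 0.73 ± 0.07, and SNHG4 and SNHG3 fell by 1.24 ± 0.10 and 0.77 ± 0.07. Reads of an intronic small RNA and of its host cannot be fully separated without knowing how strand and overlapping reads were handled, which the sources used here do not state.

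MYC, the growth-promoting transcription factor gene, was at 354, 335 and 319 CPM in DMSO, 317, 307 and 321 CPM at 150 nM and 403, 414 and 399 CPM at 500 nM and rose by 0.37 ± 0.05, and its antagonist gene MXD1 rose by 0.83 ± 0.09. MLX, a relative of the MYC partner MAX, fell by 0.48 ± 0.07.

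B-cell identity genes moved in both directions. BCL6, the germinal-centre repressor, was at 231, 224 and 247 CPM at 150 nM and 234, 233 and 237 CPM at 500 nM, a log2 change of 0.01 ± 0.05 (adjusted p = 0.924, 95% interval -0.10 to 0.11), which became 0.13 and called with total counts. IRF4, a plasma-cell and NF-kB-responsive factor, was at 263, 243 and 231 CPM in DMSO, 246, 245 and 262 CPM at 150 nM and 462, 456 and 436 CPM at 500 nM and rose by 0.84 ± 0.05. RGS13, a germinal-centre regulator of chemokine signalling, was at 119, 145 and 165 CPM at 150 nM and 62.6, 71.4 and 64.7 CPM at 500 nM and fell by 1.11 ± 0.10. Of 23 tested B-cell receptor pathway genes 12 fell and 3 rose, beside 22.8% lower and 23.7% higher among all tested genes. With total counts in place of TMM 9 fell and 7 rose. Among these genes MS4A1, which encodes CD20, and BTK fell by 0.54 ± 0.06 and 0.59 ± 0.05, and PLCG2 rose by 0.46 ± 0.06. FCRL2, an inhibitory Fc receptor-like gene, was at 36.5, 36.1 and 36.8 CPM in DMSO, 30.9, 32.3 and 31.6 CPM at 150 nM and 6.22, 6.79 and 7.38 CPM at 500 nM, a fall of 2.22 ± 0.09 (adjusted p = 1.61e-17). Of 11 tested plasma-cell differentiation genes 5 rose and 4 fell, beside 23.7% and 22.8% of all tested genes, and their median change was -0.0105. Among those that fell were MZB1 and IGJ, which serve antibody assembly, by 0.77 ± 0.06 and 0.58 ± 0.05. The 5 listed genes that served as plasma-cell markers, MZB1 and IGJ not among them, summed to 317 to 339 CPM at 150 nM and 592 to 626 CPM at 500 nM. IRF4 alone made up most of both sums, and 4 of the 5 markers were tested. The T-cell receptor chain gene CD3G, expressed in this B-cell line at 10.2, 9.49 and 11.1 CPM at 150 nM and 4.56, 5.1 and 5.21 CPM at 500 nM, fell by 1.05 ± 0.13, and the part of its list in other results was not tested.

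Antigen presentation and interferon genes changed in both directions. CIITA, the master regulator of MHC class II, rose by 0.39 ± 0.07 while its target HLA-DMA fell. IRF1 was at 16.3, 14.2 and 15 CPM at 150 nM and 34.5, 34.1 and 33.9 CPM at 500 nM and rose by 1.17 ± 0.09, whereas the interferon-induced gene IFI44 fell by 1.73 ± 0.19. Of 26 tested interferon-stimulated genes 9 rose and 7 fell (13 and 5 with total counts), shares near the 23.7% and 22.8% of all tested genes.

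Among transcripts of the Jumonji demethylases, the family JIB-04 acts on, more were called higher than lower at the second step. None was called at the first, where 1.27% of all tested genes were called. Of 28 listed genes 27 were tested, of which 10 rose, 1 fell and 16 were not called, with a median of 0.104. Among all tested genes 23.7% rose and 22.8% fell. With total counts in place of TMM 16 rose and none fell, and with GC trends removed 13 rose and 4 fell. KDM6B, which removes the repressive H3K27 mark, was at 9.16, 8.61 and 7.59 CPM in DMSO, 10.2, 9.39 and 8.57 CPM at 150 nM and 29.7, 28.6 and 27 CPM at 500 nM and rose by 1.59 ± 0.10, more than at the first step (adjusted p = 2.98e-06). KDM5B, which acts on H3K4, was at 1.04, 1.03 and 1.78 CPM in DMSO, 0.796, 1.91 and 1.64 CPM at 150 nM and 4.2, 3.86 and 3.53 CPM at 500 nM and rose by 1.42 ± 0.26, but its difference from the first step was not called (adjusted p = 0.0741). KDM4A was at 88.9, 82.1 and 76.6 CPM at 150 nM and 109, 100.4 and 98.2 CPM at 500 nM and rose by 0.31 ± 0.06 (adjusted p = 0.000236). KDM4C was at 86.7, 81.3 and 84.7 CPM at 150 nM and 105, 92.6 and 96.2 CPM at 500 nM and rose by 0.22 ± 0.06 (adjusted p = 0.00429), a call lost without 500 nM replicate 1 (log2 change 0.16). KDM4B did not pass the test (0.17 ± 0.09, adjusted p = 0.148), though it did without 150 nM replicate 1 (0.31) and with total counts (0.29). KDM5A did not either (-0.01 ± 0.05, adjusted p = 0.826), and under total counts its change was 0.11. KDM3B was the one member that fell, by 0.17 ± 0.05, a call lost with total counts.

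The genes that rose most among those called at both steps were FAM129A, P2RX1, ESRP1 and ATF3. FAM129A, a stress-induced regulator of translation, was at 0.0155 ± 0.0268 CPM in DMSO, 0.86 ± 0.448 CPM at 150 nM and 29 ± 4.53 CPM at 500 nM (mean and SD, n = 3 per group). P2RX1, an ATP-gated ion channel, was at 0.0464, 0.147 and 0.0468 CPM in DMSO, 0.866, 0.785 and 0.68 CPM at 150 nM and 12.7, 12.4 and 10.2 CPM at 500 nM, and ESRP1, an epithelial splicing regulator, was at 0.325, 0.147 and 0 CPM in DMSO, 3.93, 4.39 and 3.22 CPM at 150 nM and 52.3, 47.7 and 45.8 CPM at 500 nM. Their second steps were 5.02 ± 0.22, 3.91 ± 0.20 and 3.65 ± 0.16, and none differed from the first step by the test (adjusted p = 0.821, 0.706 and 0.242). SPNS3, a sphingolipid transporter relative, was at 0.858, 1.72 and 1.59 CPM in DMSO, 7.23, 7.19 and 6.16 CPM at 150 nM and 52.1, 46.5 and 45.1 CPM at 500 nM and rose by 2.34 ± 0.16 and 2.80 ± 0.12. The largest falls among genes called at both steps were those of CAMP, MACC1, PRX and HIST1H1B. CAMP, an antimicrobial peptide gene, was at 12.4, 13.5 and 11.7 CPM in DMSO, 8.4, 10 and 8.1 CPM at 150 nM and 1.81, 2.2 and 2 CPM at 500 nM, falling by 0.50 ± 0.13 and 2.15 ± 0.15, and more at the second step (adjusted p = 8.59e-06).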

How the data were processed

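The authors deposited unnormalized counts for 25370 gene symbols in 9 columns, each of which matched a sample title (0 columns unmatched). Per the labels' protocols the RNA was total RNA depleted of ribosomal RNA. TopHat2 2.0.14, Bowtie2 2.2.6, featureCounts 1.4.6, Subread and the builds hg19 and mm10 are named in the submitters' processing notes without a role. Annotation and strand setting: not given in the sources used here. Gene names, transcript GC content and promoters came from GENCODE and RefSeq tables of another build (GRCh38), and a RefSeq promoter was found for 11305 of 15089 tested genes.

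Counts were analysed with edgeR 4.0.16 in R 4.3.3: filterByExpr (minimum count 10, minimum total 15), TMM, and a robust quasi-likelihood fit of all 9 libraries with 3 contrasts, namely 500 minus 150 nM, 150 nM minus DMSO, and the difference of these steps. Genes were called at a Benjamini-Hochberg adjusted p under 0.05 over all tested genes. Adjusted p-values are from this test where no other tool is named. Standard errors were taken from the unshrunk change and its F statistic. The procedure was tested on simulated data. Within groups, libraries differed beyond counting noise (chi-square per degree of freedom 6.34 to 15.2), and all were kept. Counting intervals cover counting error only, since no molecular identifiers are described.

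Genes named are fixed genes, the 8 largest changes each way in the narrow class, the 4 largest each way among genes called at both steps, genes called in opposite directions, and in each list up to 4 of the main direction and 2 of the other, taken by smallest adjusted p. Another 31 genes, such as FOSB, ADM and PSMD8, were named after their values were seen. The comparison, the 47 gene lists and the rules were chosen with earlier results of these data known, so no list is independent evidence. Some genes, such as ATF3 and VEGFA, belong to several lists. Alternatives used DESeq2 1.42.0, limma 3.58.1 (voom), other scalings and filters, a replicate block, the 6 dosed libraries alone and each library left out. Removing GC or length trends and thinning to the smallest total were chosen after seeing the data.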

Additional observations from a re-analysis of the deposited data

How the results depend on the processing

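The 3577 higher and 3444 lower calls at the step stayed within 1.5 times of these counts in the alternatives run, except with total counts, which gave 2137 lower genes (189 by at least 2-fold). In each alternative the genes called there and in the reported fit kept their direction, and leaving out any 1 library gave 3043 to 3678 higher and 3003 to 3521 lower genes. With total counts the difference of the steps was called for 1729 genes more positive and 841 more negative. Genes called only at the second step were then 2108 lower (176 by at least 2-fold), those that also changed more at that step 1607 higher and 818 lower, the narrow class 996 and 674, and 3 genes were lower and then higher. KDM5A and BCL2, not called in the reported fit, changed sign with total counts, to 0.11 each (adjusted p = 0.0392 and 0.0442).

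Counts at 150 nM against DMSO were the least stable. DESeq2 called 80 genes lower there, with 64 lower at both steps, 5 lower then higher and 1 higher then lower. Without a filter 243 were higher and 77 lower, with 224 higher at both steps, 8 lower then higher and 1 higher then lower. With GC trends removed 235 were higher and 136 lower, with 225 and 122 at both steps, 6 lower then higher, 1535 genes with a more positive second step and 950 higher genes in the narrow class. Thinning gave 3 genes lower then higher. Leaving out 1 library gave 85 to 368 higher and 13 to 177 lower at 150 nM, 83 to 215 higher and 8 to 131 lower at both steps, 1 to 13 lower then higher and 0 to 63 higher then lower.

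Leaving out 1 library also gave 586 to 1194 more positive and 907 to 1780 more negative differences of the steps. Step-only genes with a called difference then numbered 534 to 1056 higher and 892 to 1596 lower, and the narrow class 232 to 551 higher and 727 to 1343 lower (11 to 21 higher by at least 2-fold). At an adjusted p under 0.01 the called-difference class held 446 higher (154 by at least 2-fold) and 800 lower genes and the narrow class 240 and 690. With a bound of 1.5-fold the narrow class held 99 higher and 96 lower genes of at least 2-fold, with limma-voom 12 higher, and with a filter of 1 CPM the step-only genes of at least 2-fold were 507 higher and 173 lower.

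The replicate number as a block gave 99 genes lower at 150 nM, 86 lower at both steps, 4 lower then higher and 2 higher then lower, and 3764 higher and 3622 lower at the step. Same-numbered libraries of the 150 and 500 nM groups did not deviate together (correlations -0.00609, -0.00772 and 0.00362 across genes). Between DMSO and 150 nM they correlated at 0.104, 0.0126 and 0.0699, each highest with its own number, a hint from the data only, and between DMSO and 500 nM at -0.0525, -0.00392 and -0.0138. Only 1 pair was above 0.1, and the numbers were not used as pairs in the reported fit. By chi-square per degree of freedom, DMSO and 150 nM libraries numbered 1, 2 and 3 differed by 8.742, 12.49 and 8.137. Libraries 1 and 3 differed by 13.51 within DMSO and by 15.2 within 150 nM. Other pairs within a group differed less, by 7.461 and 8.059 in DMSO and by 12.42 and 6.337 at 150 nM. DMSO library 2 was also closer to 150 nM library 1 (10.23) than to its own number. Whether these 2 groups are paired is thus not settled, and with the block 209 genes were higher at 150 nM. Of 293 named genes tested, 262 kept their side of the threshold and their direction at the step in all alternatives run, and 24 called genes lost the call in at least 1. Low counts limit the genes near or below 1 CPM, where folds are wide.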
